A study of Homo sapiens with 4 samples.

Results

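The genes described here are 9 components of interferon signalling: the receptor chains IFNAR1, IFNAR2, IFNGR1 and IFNGR2, the kinase JAK1, the factor STAT2, and the interferon regulatory factors IRF1, IRF7 and IRF9. They were chosen by symbol, and all 9 were found among the 59409 symbols of the deposited table. Polyadenylated RNA was sequenced from 786-O, a human renal carcinoma line. There were 2 control libraries (labelled negative control, genotype WT, from cells expressing Cas9) and 2 libraries from cells with DEK, a chromatin-associated histone chaperone, knocked out. The protocols in the labels describe a parental clone given Cas9 by lentivirus. Knockout clones were then derived from it by infection with another virus encoding guides against DEK and by sorting of individual cells. The labels do not say which clone a knockout library came from, whether the controls received a guide, or whether libraries of a group were separate cultures. Every p-value therefore rests on library-to-library spread, and that spread may be technical. No interferon treatment is named in the labels, so the levels are those of unstimulated cultures as far as the labels say.

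Type I interferons bind a receptor made of the IFNAR1 and IFNAR2 chains, and interferon gamma binds a receptor made of IFNGR1 and IFNGR2. JAK1 is bound to a chain of each receptor and, when ligand is present, phosphorylates STAT proteins. STAT2 joins a partner STAT and the DNA-binding subunit IRF9 in the complex ISGF3, which binds a promoter element called ISRE, while STAT dimers downstream of interferon gamma bind an element called GAS. IRF1 and IRF7 are transcription factors whose genes are themselves interferon-inducible. IRF7 drives interferon genes after infection, and IRF1 drives many targets of interferon gamma.

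DEK mRNA measured 95.02 and 76.3 TPM (transcripts per 1000000) in control libraries against 31.4 and 15.7 TPM in knockout libraries, lower in both. Its log2 fold change was -1.89 (SE 0.33, limma adjusted p = 0.030), and without control 1 or control 2 the adjusted p was 0.14 and 0.10. A constant variance prior gave 0.056, and testing every gene regardless of level gave 0.096. Depth, estimated from the steps between low TPM values, was 35.8 to 40.1 reads per library in units of 1000000. Of the 8 renal carcinoma markers, PAX8, VIM, KRT8 and KRT18 were each above 140 TPM in all 4 libraries, and CA9 and EPCAM were at or under 0.649 TPM. Several of the 8 differed between groups: KRT18 rose (log2 fold change 0.42, adjusted p = 0.025), while PAX2 (-1.08, adjusted p = 0.027) and CD24 (-2.06, adjusted p = 0.035) fell. The part of these marker differences in the results was not tested. Of 11 leukocyte markers 5 were at 0 in every library, and their summed level was 0.794 and 1.34 TPM in control libraries against 2.40 and 1.75 TPM in knockout libraries. The 7 fibroblast markers summed to 1.88 to 2.82 TPM and the 5 endothelial markers to at most 0.507 TPM.

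The promoter windows show where a response element can be read in these genes. RefSeq windows (GRCh38.p14) were found for 7 of the 9 genes, 11 windows in all, since IFNAR1, IFNGR1 and JAK1 have several. They were not found for IFNAR2 and IRF7. In the 250 bases before each start, both strands were searched for a pair of GAAA separated by any 2 bases (ISRE) and for TTCNNNGAA (GAS, which reads the same on both strands). A GAS match was present in the windows of IRF1 and IRF9 and in no other member's window, and 0 of the 11 windows held the ISRE letters. Among all 35116 windows of this length, 6.57% held the GAS letters and 3.02% the ISRE letters. The IRF1 window, chr5:132490774-132491023 on the minus strand, is printed with the match in capitals. It lies 124 to 116 bases before the start. For IRF9, where other annotated transcripts begin inside the window, the match is given with 10 bases on each side, chr14:24161192-24161220 on the plus strand, 63 to 55 bases before the start. A match is a run of letters and not a measured binding site.
IRF1: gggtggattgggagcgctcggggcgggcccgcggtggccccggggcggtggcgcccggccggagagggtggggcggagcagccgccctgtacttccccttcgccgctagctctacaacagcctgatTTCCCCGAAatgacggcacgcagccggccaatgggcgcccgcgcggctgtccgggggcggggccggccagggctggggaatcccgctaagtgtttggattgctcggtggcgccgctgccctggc
IRF9: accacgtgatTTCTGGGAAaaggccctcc

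Of the signalling components, IFNGR2 was the 1 that passed the test. Of the 9 genes, 8 passed the filter on low values (at least 1 TPM in at least 2 libraries) and IRF9 did not. The test was limma on log2(TPM + 1) over 15815 genes, with Benjamini-Hochberg adjustment at 0.05. It called 1 of the 8, IFNGR2, which rose. It called 0 that fell. At an unadjusted p under 0.05, 3 were higher and 2 lower. Across all tested genes 17.7% were called, 9.06% higher and 8.67% lower, and 38.3% had an unadjusted p under 0.05. The knockout libraries lay on the same side of both controls for 6 of the 8 genes, 3 higher and 3 lower. That was so for 68.3% of all tested genes, 29.2% higher and 39% lower. The median log2 fold change of the 8 was 0.0054, against -0.058 for all tested genes, and their changes ran from -0.51 to 0.59. The median size of change, sign ignored, was 0.44 for the 8 and 0.29 for all tested genes.

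**Figure D1:**
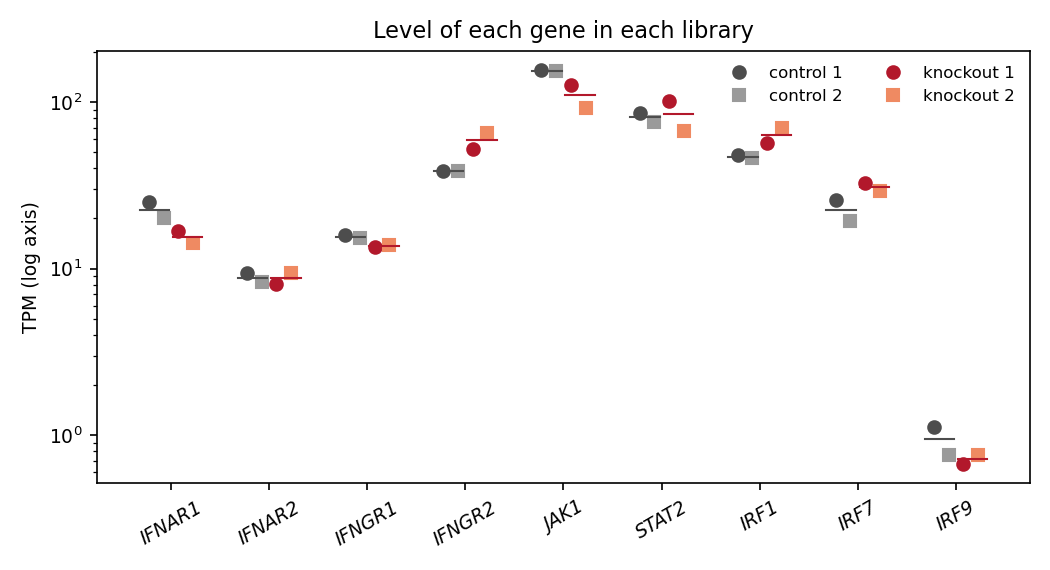
TPM (log axis) of the 9 genes in each library, with control libraries in grey, knockout libraries in red and orange, and horizontal lines at the mean of each group (n = 2). IFNGR2, IRF1 and IRF7 lie higher in both knockouts, IFNAR1, IFNGR1 and JAK1 lower in both, IFNAR2 and STAT2 overlap, and IRF9 lies near 1 TPM.

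TPM values are per length, so levels can be compared between genes as far as the gene lengths used, which are unknown here, allow. The places of IFNAR2 and IRF9 are uncertain, as most of their coding bases are shared with another gene model. In the controls the order of mean TPM was JAK1, STAT2, IRF1, IFNGR2, IRF7, IFNAR1, IFNGR1, IFNAR2 and IRF9. The control values of IRF7 and IFNAR1 overlapped, and the other neighbours in this order did not. JAK1 lay above 93.6% of tested genes in the controls and IFNAR2 above 43.5%. In the knockouts the order of the means was the same, but JAK1 overlapped STAT2, STAT2 overlapped IRF1, and IRF1 overlapped IFNGR2, while IRF7 and IFNAR1 lay apart. In bulk RNA, fewer cells expressing a gene and less RNA per cell cannot be told apart.

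Among the receptors, the signal-transducing chain of the interferon gamma receptor rose and the other 3 chains did not pass the test. IFNGR2 (ENSG00000159128.14, chromosome 21, 33402896 to 33479348, plus strand, GRCh38) measured 38.3 and 38.4 TPM in control libraries against 52.3 and 65.2 TPM in knockout libraries. Both knockouts lay above both controls, which were nearly equal. The mean was 38.4 ± 0.027 TPM in the controls and 58.8 ± 9.13 TPM in the knockouts (SD, n = 2), a ratio of 1.53. The log2 fold change was 0.59 (SE 0.12, limma adjusted p = 0.041). The call did not hold without control 1 (0.59, adjusted p = 0.21) or without control 2 (0.60, adjusted p = 0.18), nor with no filter on low values (adjusted p = 0.10) or a constant variance prior (adjusted p = 0.074). Among exonic bases of IFNGR2, 12.8% are shared with TMEM50B on the other strand. TMEM50B was at 23.4 to 24.6 TPM in all 4 libraries, with a log2 fold change of 0.0074 (adjusted p = 0.96).

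IFNGR1, the chain that binds interferon gamma with high affinity (chromosome 6, 137197484 to 137219449, minus strand), measured 15.9 and 15.2 TPM in control libraries against 13.5 and 13.9 TPM in knockout libraries. Both knockouts were lower, by less than the test could call, -0.17 on the log2 scale (SE 0.10, adjusted p = 0.28). Its sign was opposite, 0.098, once the trend with GC content was removed. The level of IFNGR2 relative to IFNGR1 was 2.42 and 2.53 in control libraries against 3.88 and 4.69 in knockout libraries. The ratio was thus higher in both knockouts than in both controls. This ratio was not tested.

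IFNAR1, the other chain of the type I receptor (chromosome 21, 33324477 to 33359862, plus strand), measured 25.0 and 20.0 TPM in control libraries against 16.9 and 14.3 TPM in knockout libraries. Both knockouts lay below both controls, and the controls differed from each other by more than the knockouts did. Its change of -0.50 on the log2 scale (SE 0.15) did not pass the test (adjusted p = 0.084), and it was called only without knockout 1 (-0.61, adjusted p = 0.040) and with the replicate number as a block (adjusted p = 0.047) among the 13 alternatives run.

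IFNAR2, the chain that binds type I interferons with high affinity (chromosome 21, 33229901 to 33265675, plus strand), measured 9.40 and 8.30 TPM in control libraries against 8.12 and 9.39 TPM in knockout libraries. The groups overlapped completely, and the change was -0.015 on the log2 scale (SE 0.14, adjusted p = 0.95). The ratio of IFNAR1 to IFNAR2 was 2.66 and 2.41 in control libraries against 2.08 and 1.52 in knockout libraries, lower in both. Of the coding bases of IFNAR2, 86.9% are shared with AP000295.1, a gene model on the same strand, which was listed at 0 in all 4 libraries. The level of IFNAR2 and its ratio to IFNAR1 are uncertain to that extent.

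Genes near the receptors on chromosome 21 did not move in a single direction. The 3 receptor genes there lie side by side with IL10RB. Within 1000 kb on either side, 17 other genes were tested, of which 1 was called higher and 1 lower, with a median log2 fold change of -0.12. Among all tested genes 17.7% were called. The called genes were AP000569.1 (0.90) and ITSN1, a scaffold protein of endocytosis (-0.91), named here because their counts were small. PAXBP1, the tested gene before IFNAR2, had a log2 fold change of -0.55 (adjusted p = 0.072), close to that of IFNAR1, and was not called. Over chromosome 21 as a whole the median of 156 tested genes was 0.0034.

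**Figure D2:**
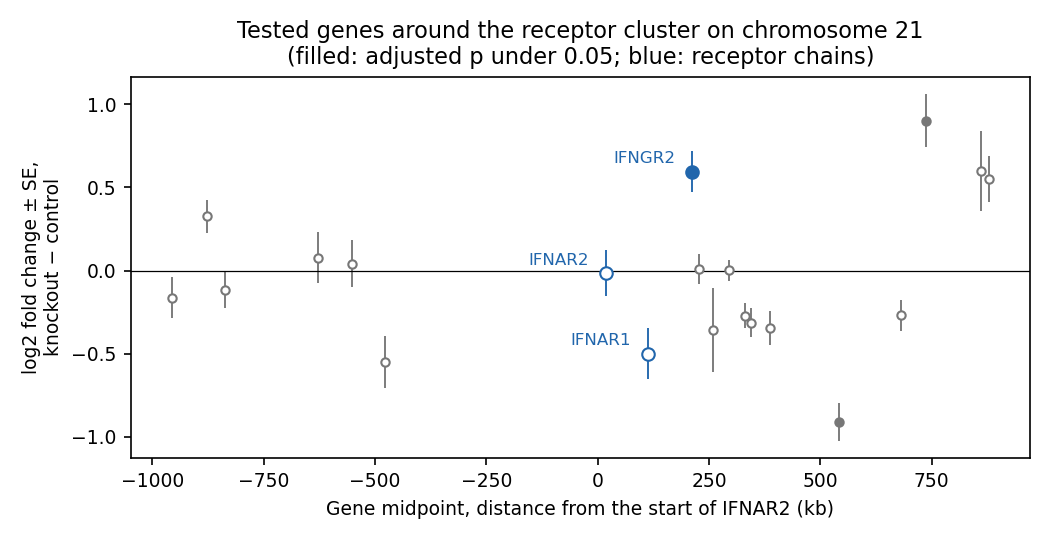
Log2 fold change (knockout minus control, with SE) of 20 tested genes against the distance of the gene's midpoint from the start of IFNAR2 in kb, with the receptor chains in blue and genes at an adjusted p under 0.05 filled. IFNGR2 at 0.59, IFNAR2 at -0.015 and IFNAR1 at -0.50 differ in position on the vertical axis although they are neighbours.

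For the kinase and the STAT factor the knockouts differed widely from each other. JAK1 (ENSG00000162434.11, chromosome 1, 64833229 to 64966504, minus strand), the kinase shared by both receptors, measured 154.6 and 153.8 TPM in control libraries against 127.1 and 91.9 TPM in knockout libraries. Both knockouts were lower, and knockout 1 was 1.38 times the level of knockout 2. The mean was 154.2 ± 0.564 TPM in the controls and 109.5 ± 24.9 TPM in the knockouts (SD, n = 2). With all libraries its change of -0.51 on the log2 scale (SE 0.16) did not pass (adjusted p = 0.089). With either knockout left out it passed, at -0.74 without knockout 1 (adjusted p = 0.0019) and at -0.28 without knockout 2 (adjusted p = 0.029). In each of these fits the spread comes from the controls, whose values were nearly equal, and the lone knockout is assumed to vary like them. The 1599 tested genes of chromosome 1 had a median of -0.17 between groups and of -0.17 for knockout 2 minus knockout 1, against -0.058 and 0.0017 over all genes. JAK1 differed between groups in the same direction as its chromosome's median and by more. Neighbouring RAVER2 measured 16.4 and 16.1 TPM in control libraries against 12.6 and 11.0 TPM in knockout libraries. Its log2 fold change was -0.43 (adjusted p = 0.066). On the other side MIR3671, at 0 in a library of each group, had -0.39 (adjusted p = 0.80). The part of these shifts in the result for JAK1 was not tested.

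STAT2, the STAT of ISGF3 (chromosome 12, 56341597 to 56360155, minus strand), measured 86.3 and 76.3 TPM in control libraries against 101.2 and 67.4 TPM in knockout libraries. The knockouts lay on either side of the controls, knockout 1 at 1.502 times knockout 2. The log2 fold change was 0.025 (SE 0.21, adjusted p = 0.94). It was -0.26 without knockout 1 and 0.32 without knockout 2, neither of which passed (adjusted p = 0.084 and 0.077). The ratio of JAK1 to STAT2 was 1.79 and 2.02 in control libraries against 1.26 and 1.363 in knockout libraries, lower in both.

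**Figure D3:**
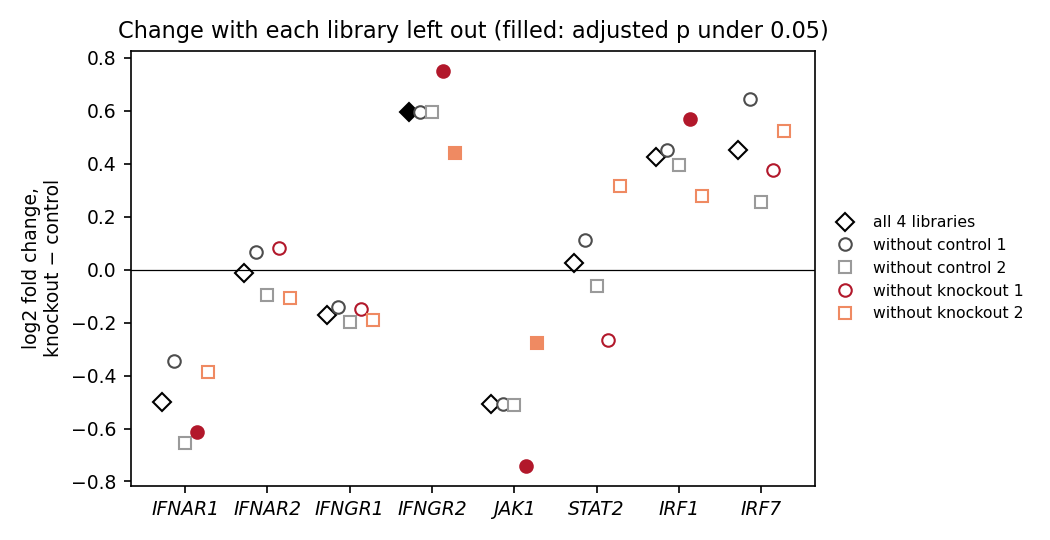
Log2 fold change (knockout minus control) of the 8 tested genes with all 4 libraries and with each library left out, filled where the adjusted p was under 0.05. IFNGR2 is filled with all libraries and without either knockout, JAK1 only without a knockout, and STAT2 lies at -0.26 and 0.32 without knockout 1 and knockout 2.

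Both tested interferon regulatory factors among the members were higher in both knockouts without passing the test. IRF1 (ENSG00000125347.13, chromosome 5, 132481609 to 132490798, minus strand) measured 47.9 and 46.0 TPM in control libraries against 57.04 and 70.1 TPM in knockout libraries. The ratio of means was 1.35, and the change of 0.42 on the log2 scale (SE 0.12) did not pass (adjusted p = 0.072). It passed without knockout 1 (0.57, adjusted p = 0.0061) and in no other of the 13 alternatives. Without knockout 2 the change was 0.28 (adjusted p = 0.057), and without control 1 or control 2 the adjusted p was 0.28 and 0.29. Of its exonic bases, 22.0% are shared with C5orf56, an older name of IRF1-AS1, on the other strand. On that strand 6.01% are shared with AC116366.3. Of its coding bases 59.5% are overlapped on the other strand. The use of strand in counting is not given in the sources used here. Reads of IRF1 and of those genes therefore cannot be told apart within the shared bases. IRF1-AS1 was at 2.93 to 4.49 TPM (log2 fold change 0.15, adjusted p = 0.65).

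IRF7 (ENSG00000185507.20, chromosome 11, 612553 to 615999, minus strand) measured 25.7 and 19.4 TPM in control libraries against 32.5 and 29.3 TPM in knockout libraries. Both knockouts were higher, but the controls differed from each other by more than control 1 did from knockout 2. The ratio of means was 1.37, or 0.45 on the log2 scale (SE 0.16, adjusted p = 0.11). It did not pass in any of the 13 alternatives, where the adjusted p lay between 0.063 and 0.44. Without control 2 its change was 0.26. Neighbouring PHRF1 (log2 fold change 0.13) and DRD4 (0.0069) were not called.

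IRF9, the DNA-binding subunit of ISGF3 (ENSG00000213928.8, chromosome 14, 24161053 to 24166565, plus strand), measured 1.13 and 0.761 TPM in control libraries against 0.676 and 0.766 TPM in knockout libraries. Its estimated reads ranged from 23.8 to 43.3 per library, and it did not pass the filter and was not tested. The groups overlapped. In the annotation, 88.9% of the coding bases of IRF9 and 48.4% of its exonic bases are also exonic in AL136295.5, a same-strand gene model. That model also shares 34.8% of the exonic bases of the neighbouring gene RNF31. AL136295.5 was at 0.138 to 0.337 TPM, and RNF31 at 0.028 to 0.240 TPM. IL10RB, with 80.8% of its coding bases shared with AP000295.1, was at 0.509 to 1.08 TPM. Among 987 protein-coding genes with over 80% of their coding bases shared on the same strand, the median of the mean TPM was 0.0267 and 24.0% reached 1 TPM. Among 17429 genes with no such base, the median was 4.94 TPM and 59.6% reached 1 TPM. Shared bases count for each gene model that holds them, so the class over 80% can include models such as AP000295.1. For overlap on the other strand the shares reaching 1 TPM were 55.8% of 95 genes and 56.6% of 16239 genes. How reads in shared exons were counted is not given in the sources used here, so the level of IRF9 is uncertain, and the part of the shared exons in it was not tested.

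**Figure D4:**
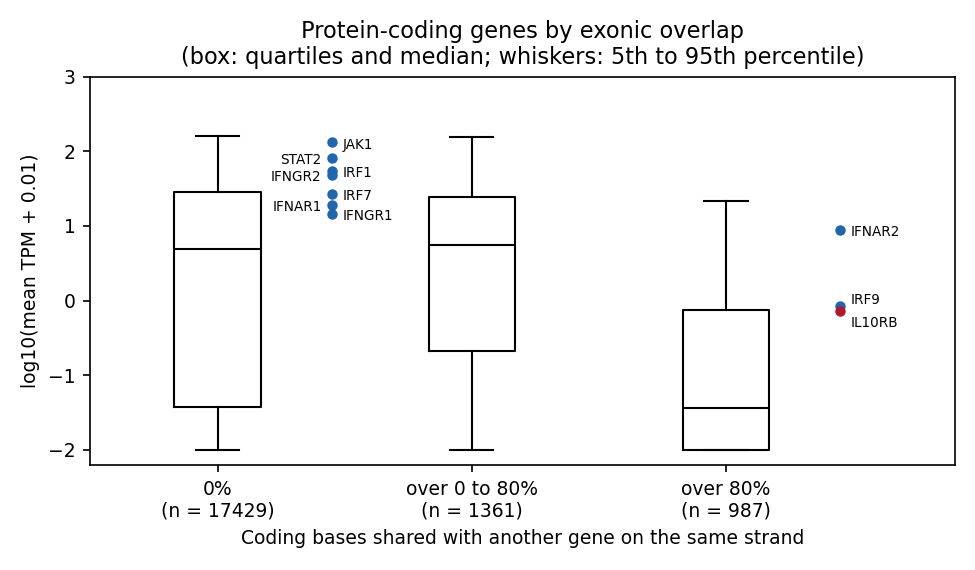
Log10 of mean TPM plus 0.01 for protein-coding genes by the percentage of coding bases shared with another gene on the same strand, as boxes (quartiles and median, whiskers at percentiles 5 and 95), with the 9 genes in blue and IL10RB in red. IRF9, IFNAR2 and IL10RB fall in the class over 80%, whose median is 0.0267 TPM, and the other 7 in the class with no shared base.

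Many interferon target genes had larger fold changes than any of the 9 genes, a difference that was not tested. The lists of 103 further pathway genes had 69 tested members, of which 20 rose and 6 fell, 37.7% against 17.7% of all tested genes. Their median log2 fold change was 0.41. Without control 1 or control 2 only 2 were called each time. With scaling by the median ratio 21 rose and 1 fell. Of the 69, STAT4 passed the filter through the controls alone and GBP5 and EPSTI1 through the knockouts alone, so a difference was built into their selection. Among the 66 that passed with a library of each group, 24 were called. Of 26 target genes of ISGF3, 12 rose and 0 fell, 20 had a higher value and 0 a lower value at an unadjusted p under 0.05, and the median was 1.30. The smallest p-values were those of IFI27 (log2 fold change 5.79), BST2, which tethers virus particles (1.30), MX2, an antiviral GTPase (2.55), and IFI6 (2.65), all of which rose. Of 18 targets of interferon gamma, CXCL9, CXCL10, CXCL11, CIITA, IDO1 and HLA-DRA were under 1 TPM in every library and were not tested. Of the 12 tested 6 rose and 0 fell, 9 higher and 0 lower at an unadjusted p under 0.05, with a median of 0.73. Without GBP5, 5 of 11 rose. GBP5, a guanylate-binding protein with both controls under the filter's 1 TPM, measured 0.0492 and 0.142 TPM in control libraries against 6.48 and 4.44 TPM in knockout libraries. TAP1, a peptide transporter, rose 2.24-fold and PSMB9, an immunoproteasome subunit, 2.37-fold. ICAM1, an adhesion molecule, rose 1.498-fold.

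**Figure D5:**
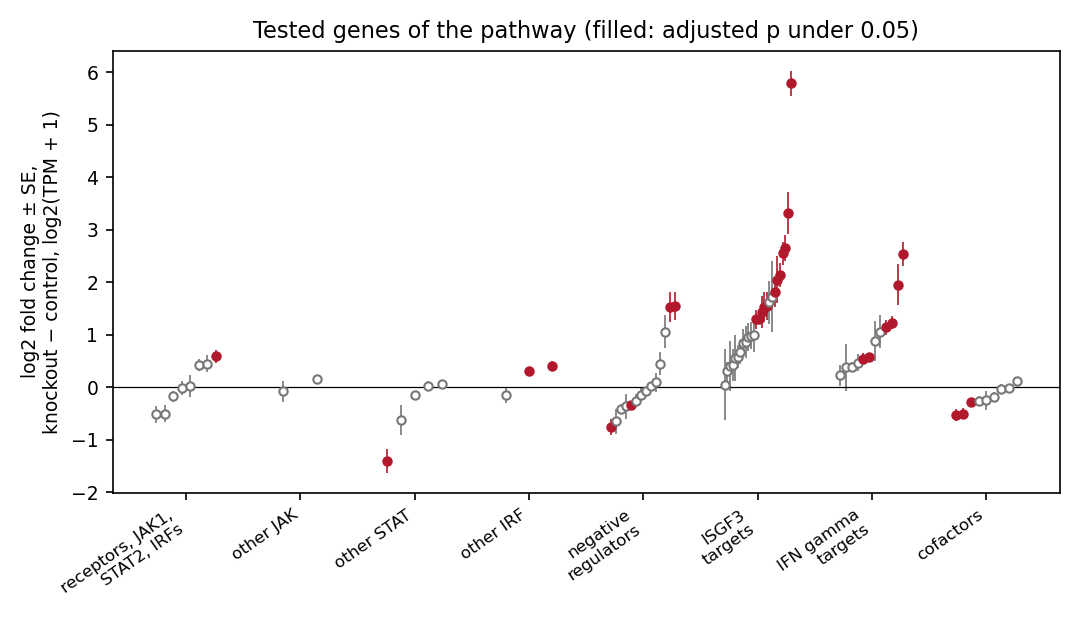
Log2 fold change with SE (knockout minus control, on the log2(TPM + 1) scale) of the tested genes of each list, ordered by size within a list and filled where the adjusted p was under 0.05. The receptors, JAK1, STAT2 and IRF factors lie between -0.51 and 0.59, the ISGF3 targets reach 5.79.

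Further genes of the IRF, STAT and JAK families and IFNLR1 are given by family, against the 17.7% called among all tested genes. Of 3 tested further IRF genes 2 rose. IRF2, which binds the same sites as IRF1, rose from 16.8 ± 0.402 to 22.8 ± 0.846 TPM (SD, n = 2, adjusted p = 0.048). IRF3, which acts with IRF7 on interferon genes, rose from 64.8 ± 1.04 to 80.6 ± 2.18 TPM (adjusted p = 0.047). It was not called with the GC trend removed (adjusted p = 0.085). IRF2 and IRF3 were not called with no filter on low values (adjusted p = 0.092 and 0.088). The same held with the replicate block (adjusted p = 0.068 and 0.080). Neither passed without control 1 or control 2 (adjusted p = 0.27 to 0.30), without mitochondrial genes, or with a constant variance prior. Of 5 tested further STAT genes, STAT4 fell, from 2.695 and 3.66 TPM to 0.701 and 0.446 TPM (log2 fold change -1.40, adjusted p = 0.025), and 0 rose, also at an unadjusted p under 0.05. STAT4 entered the test only because the controls reached 1 TPM, which both knockouts did not, and it was not tested with a control left out. The 2 tested further JAK kinases were not called, also at an unadjusted p under 0.05. IFNLR1, the ligand-binding chain for type III interferons, measured 2.88 and 2.74 TPM in control libraries against 4.45 and 4.37 TPM in knockout libraries (adjusted p = 0.078).

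Negative regulators went both ways, with 2 rising and 2 falling of 14 tested and a median of -0.11. The called share was 28.6%, against 17.7% of all tested genes. USP18, which binds IFNAR2 and blocks the type I receptor, measured 23.2 and 18.5 TPM in control libraries against 81.7 and 47.1 TPM in knockout libraries (log2 fold change 1.54, adjusted p = 0.033). ISG15, the ubiquitin-like modifier that stabilises USP18, rose 2.999-fold. Both are also ISGF3 targets. The rises of USP18 and ISG15 did not pass with a constant variance prior (adjusted p = 0.060 and 0.056). Nor did they pass with no filter on low values (adjusted p = 0.099 and 0.095). Their log2 fold changes were 1.69 and 1.70 without control 1, and 1.38 and 1.38 without control 2. PTPN2, a phosphatase of JAK1, fell from 11.8 ± 0.778 to 6.60 ± 1.13 TPM (SD, n = 2), and PTPN11, the phosphatase SHP2, fell by 0.34 on the log2 scale. Of 9 transcriptional cofactors 0 rose, also at an unadjusted p under 0.05, and 3 fell, namely CREBBP (-0.53), HDAC2 (-0.50) and SMARCA4 (-0.29). The 5 falls of PTPN2, PTPN11, CREBBP, HDAC2 and SMARCA4 depended on the processing. With the GC trend removed CREBBP (-0.62) and SMARCA4 (-0.40) passed. HDAC2 (-0.16, adjusted p = 0.35), PTPN11 (-0.15, adjusted p = 0.24) and PTPN2 (-0.47, adjusted p = 0.084) then did not. With the median ratio each of the 5 kept its sign but none passed (adjusted p = 0.051 to 0.082). None passed with a constant variance prior (adjusted p = 0.057 to 0.11) or without control 1 or control 2 either.

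Interferon ligands were at or near the limit of detection. Of 22 ligand genes 18 were listed at 0 in every library, where a count of 0 allows up to 3 reads, or 0.0749 to 0.0837 per 1000000 reads. IFNB1, the type I interferon made by most cell types (chromosome 9, 21077105 to 21077963), was estimated at 1 and 0 reads in control libraries against 4 and 7 in knockout libraries. Reads pooled within each group gave a depth-adjusted ratio of 11.4, with an exact 95% interval of 1.65 to 489 that covers counting error only. IFNB1 was named after its values were seen, so this interval is not a test. The other ligand genes with estimated reads were IFNE (6 and 2 against 7 and 6) and IFNL1 (0 and 2.21 against 5.53 and 2.21). IFNL3 had 1 and 0 against 1 and 0. No ligand gene passed the filter.

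Between the knockout libraries, 4 of the 8 tested genes were higher in knockout 1, 50% against 49.5% of all tested genes. JAK1 and STAT2 were 1.38 and 1.502 times as high in knockout 1 as in knockout 2, IFNAR1 1.181 times and IRF7 1.11 times, while IFNGR1, IFNAR2, IRF1 and IFNGR2 stood at 0.969, 0.865, 0.813 and 0.802 times. Of the 26 ISGF3 targets, 23 were higher in knockout 1 than in knockout 2, or 88.5%. Most of these targets were also higher in control 1 than in control 2, though IFIT2 was not (20.0 and 21.1 TPM). The summed level of the 26 was 2888 and 2401 TPM in control libraries against 11202 and 7954 TPM in knockout libraries. The order by library number was thus seen in both groups. With a single pair of libraries in each group, this difference has no replicate check.

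Genes of nearly the same profile over the 4 libraries were found by the Euclidean distance of centred log2(TPM + 1) values. Nearest to IFNGR2 were ABHD11 (distance 0.014), PLEKHM1 (0.021) and CARS1 (0.021), and nearest to IFNAR1 were TRMT1L (0.018), APOOL (0.020) and OIP5-AS1 (0.022). Nearest to JAK1 were CCDC77 (0.032), SGK3 (0.033) and LLPHP3 (0.034). With 4 libraries such likeness is a description of these values.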

How the data were processed

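The authors deposited a table of TPM, transcripts per 1000000 of the library, in which each of the 4 libraries is a column summing to 1000000 over 59409 symbols. Per the submitters' processing notes, the tools were featureCounts 2.0.1, STAR 2.7.8a, DESeq2 1.36.0 and cutadapt 1.18, with hg38 as the build; the role of each tool, the annotation and the gene lengths are unknown here. Libraries were grouped by title.

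A gene was tested if 2 or more libraries reached 1 TPM, which left 15815. The test was limma 3.58.1 (R 4.3.3) on log2(TPM + 1), with a group term alone, a variance prior following mean expression and Benjamini-Hochberg adjustment at 0.05. This scale understates changes of low genes. A fold or ratio not marked log2 divides mean TPM values. The procedure was also run on simulated data with planted changes and independent noise that followed mean expression. Such data cannot show how the calls depend on single real libraries. The members and gene lists were chosen with earlier results of these data known. Named are all 9 members, DEK, called genes of the lists (at most 4 per list), neighbouring genes and the 3 nearest genes in profile of the 3 members that changed most. Named after their values were seen were the overlapping genes, IL10RB, IFNLR1, IFNB1, EPSTI1, AP000569.1 and ITSN1. The other ligand genes with reads and the untested targets of interferon gamma were named in the same way.

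Positions and overlaps come from GENCODE release 29 on GRCh38 and promoters from RefSeq. Positions are counted from 1. Read numbers are estimates: of values under 200 reads, 54.0% to 55.9% were whole to within 0.02. The 13 alternatives were another pseudocount, 2 filters, 2 scalings, removal of mitochondrial genes, removal of the GC trend, a constant prior, the replicate block and each library left out.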

Additional observations from a re-analysis of the deposited data

How the results depend on the processing

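The 13 alternatives were planned. The count of called genes was 2804, and 26 with no filter on low values, 1437 with a constant variance prior and 47 to 5510 with a library left out (47 without control 1, 51 without control 2, 5510 without knockout 1, 3092 without knockout 2). In the same order, members called were 1, then 0, 0 and 0 to 4, and other pathway genes called were 26, then 1, 13 and 2 to 38. With the median ratio 1588 of all genes rose and 955 fell, and 1433 and 1371 in the fit as reported. With no filter 26 rose and 0 fell. With the replicate block 2 members were called, IFNGR2 and IFNAR1, and 2971 genes in all. The labels do not say what the numbers share, so the numbers were not taken to pair the libraries. Deviations of same-numbered libraries correlated at 0.0989 across all tested genes. That value does not describe the ISGF3 targets, whose summed level was higher in library 1 of each group. STAT2, IRF7, IFNAR1 and JAK1 were also higher in library 1 of each group, and the other tested members were not. Signs reversed for genes near no change. IFNAR2 was 0.040 with the median ratio, 0.034 with quantile normalization, 0.026 with the GC trend removed, and -0.11 to 0.080 with a library left out. IFNGR1 was 0.098 with the GC trend removed. STAT2 was -0.0042 without genes of the mitochondrial genome, -0.0024 with the GC trend removed, and -0.26 to 0.32 with a library left out. The cause was not tested. IRF7 kept its direction in all 13, at 0.26 to 0.64, and passed in none.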
